A study of Mus musculus with 6 samples.

Results

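SMAD4 binding was read on 2 of the 6 promoter arrays of a study of SMAD proteins in mouse embryonic stem cells, and those 2 arrays, titled as the SMAD4 binding targets, are described here. Each array carried DNA recovered with an anti-SMAD4 antibody in the red channel (Cy5) and whole cell extract DNA of the same preparation, the input, in the green channel (Cy3). The antibody was raised against the linker of recombinant human SMAD4. The cells were R1, an established mouse embryonic stem cell line, undifferentiated and untreated, grown without feeder cells in knockout serum replacement with leukemia inhibitory factor (LIF). The other 4 arrays carried SMAD1/5 and SMAD2 immunoprecipitates with their own inputs from the same line. The 2 arrays are not repeats of each other: the first tiles chromosomes 1 to 8 with the beginning of chromosome 9, and the second tiles all others. Each promoter was therefore read on 1 array. There was 1 biological replicate and no dye swap. Each error below is therefore a spread (SD or SE) among probes on a single array, no p-value is given, and a dye effect cannot be told apart from recovery by the antibody. The material is genomic DNA, in which marker expression cannot be read, so the cell type was taken from the labels. An immunoprecipitation with a nonspecific antibody was not analysed here.

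SMAD4 is the partner that the signal-carrying SMADs share. BMP receptors phosphorylate SMAD1, SMAD5 and SMAD9, while Activin, Nodal and TGF-beta receptors phosphorylate SMAD2 and SMAD3, and either kind joins SMAD4 and gathers in the nucleus. SMAD4 contacts DNA through its MH1 domain at short elements such as CAGAC and at GC-rich elements, usually beside other transcription factors. In embryonic stem cells the Id genes are known BMP targets, and Lefty1, Lefty2 and Smad7 are known targets of the Nodal side.

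The arrays held 237195 and 237185 probes, of which 42 and 20 had an outlier flag and were left out. Input lay well above background in 99.6% and 99.7% of probes, and the immunoprecipitate in 99.6% and 99.8%. The median input was 5.36 and 5.05 times its local background. The log2 ratio of immunoprecipitate over input, centred on the array median, had an SD of 0.99 and 0.98 over probes, against 0.08 and 0.07 over 480 spots of 1 control probe. Neighbouring probes correlated at r of 0.41 and 0.42, a description across probes of single arrays. The SMAD4 arrays were extracted with another software version and protocol than the other 4 arrays, so extraction and antibody cannot be told apart.

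The comparison of the 2 channels asks which promoters SMAD4 occupied. The highest ratios lay in short stretches near genes such as Trim46 of neurons, the taste receptor gene Tas2r138, the thyroid gene Tg and the hormone precursor genes Apln and Adm. Windows average the log2 ratios of all probes up to 500 bp from a central probe, and a z expresses how many robust SDs a window lies from the median window of its array. At the threshold, a z of 4, the window log2 ratio was 2.30 on array 1 and 2.29 on array 2, or 4.94-fold and 4.89-fold. Of 16728 genes with windows, 419 had at least 1 enriched window, which is 2.5% of genes. The same rule turned over called 8 genes low, or 0.0478%. The repeat on mean signal minus local background called 132 genes, or 0.789%, and 116 of these were among the 419, which is 87.9% of the shorter list and 27.7% of the longer one.

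The 419 genes lay in 427 regions with a median length of 593 bp, and 230 of the regions (53.9%) were a single window. Some neighbours share a window, so the 419 genes had 409 distinct peak windows. At the threshold the call turned on small differences. Lce1e was just inside at a z of 4.00303 and Tmem214 at 4.00333, while Pds5b was just outside at 3.99993 and Usp13 at 3.99922. A further 8 genes passed the z but had fewer than 2 high probes, led by Col15a1 at 4.34.

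Of 239 miRNA genes measured, 75 of them under an older name in the array annotation, 9 were enriched, or 3.77% against 2.5% of all genes. Their median peak z was 2.18 against 1.75, with the number of windows per gene not matched. The 9 genes share 6 windows, and they were picked out after their values were seen. Their mature sequences from RefSeq (GRCm38.p6) are shown because they name the products of the genes and show which of them share a seed; capitals mark the seed, bases 2 to 8.
mmu-miR-223-3p: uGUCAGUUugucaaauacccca
mmu-miR-221-3p: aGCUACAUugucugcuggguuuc
mmu-miR-222-3p: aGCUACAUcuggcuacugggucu
mmu-miR-139-5p: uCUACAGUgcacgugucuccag
mmu-miR-31-5p: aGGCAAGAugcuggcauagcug
mmu-miR-29c-3p: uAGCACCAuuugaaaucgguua
mmu-miR-29b-3p: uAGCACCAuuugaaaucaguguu
mmu-miR-206-3p: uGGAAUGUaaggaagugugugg
mmu-miR-133b-3p: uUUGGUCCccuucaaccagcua

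Mir223, whose miRNA is known from myeloid cells, had the highest z of the miRNA genes at 5.43, its window averaging 3.08 ± 0.82 (SD over 4 probes). Its 4 probes had inputs of 13.3, 21.7, 14.9 and 24.6 and immunoprecipitates of 229, 189, 85.7 and 118 in processed intensity. Those inputs are near the level of the negative control spots, 15.9 and 14.6 on the 2 arrays, and the gene's highest z by mean signal was 2.84. Mir221 and Mir222, a pair from 1 transcript with the same seed, shared a single window at a z of 4.91 (2.79 ± 0.28, 3 probes). Mir139 had 4.52 and Mir31 4.51. Mir29c and mmu-mir-29b-2, neighbours whose 3p products have the same seed, shared a window at 4.50 (2.58 ± 1.31, 5 probes). The muscle miRNA genes Mir206 and mmu-mir-133b, also neighbours, shared a window of 2.43 ± 0.49 (3 probes) with a z of 4.23. It lay at -86 bp from the annotated start of Mir206 and at -3845 bp from that of mmu-mir-133b.

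Of the 419 genes 12 (2.86%) had a peak centred between -250 and +50 bp, against 3.63% for the highest window of all genes. Promoters were taken from RefSeq (GRCm38.p6), from 250 bases before to 50 after the start, and searched for CAGAC on both strands (GTCTG as its reverse complement). Of all 32544 RefSeq promoters of that length 49.5% hold these letters. Of the GC-rich letters, GGCGC is in 37.1% and GGCCG in 35.5% of promoters, and the palindrome GTCTAGAC, which holds neither CAGAC nor GTCTG, is in 0.215%. A match describes letters, not binding. Olfr1350, an olfactory receptor gene among the 20 highest, is shown because its peak lies at the start. Klra2, a receptor gene of natural killer cells, Fam24b, and Best1, a chloride channel gene of the retinal pigment epithelium, are shown for the same reason and were chosen after their values were seen. Other genes with a peak at the start are not printed. Among them are Cdh7, with a z of 4.79 at 1 bp, and Fmo4, with 4.40 at -188 bp. The promoter of Fmo4 holds neither CAGAC nor GTCTG. Capitals mark CAGAC or GTCTG, and each line runs 5′ to 3′ along the gene's strand.
Olfr1350, chr7:6569743-6570042, plus strand: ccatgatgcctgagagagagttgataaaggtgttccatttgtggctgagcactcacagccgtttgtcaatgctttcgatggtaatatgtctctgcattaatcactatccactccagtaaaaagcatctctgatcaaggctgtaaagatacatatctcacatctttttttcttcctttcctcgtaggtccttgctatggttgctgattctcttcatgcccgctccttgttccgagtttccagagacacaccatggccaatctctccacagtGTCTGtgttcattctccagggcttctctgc
Klra2, chr6:131247313-131247612, minus strand: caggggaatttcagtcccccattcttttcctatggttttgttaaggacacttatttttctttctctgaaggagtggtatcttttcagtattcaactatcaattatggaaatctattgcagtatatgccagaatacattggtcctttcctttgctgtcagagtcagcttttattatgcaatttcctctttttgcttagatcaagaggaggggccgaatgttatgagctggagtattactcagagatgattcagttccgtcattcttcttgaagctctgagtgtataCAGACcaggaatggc
Fam24b, chr7:131329450-131329749, minus strand: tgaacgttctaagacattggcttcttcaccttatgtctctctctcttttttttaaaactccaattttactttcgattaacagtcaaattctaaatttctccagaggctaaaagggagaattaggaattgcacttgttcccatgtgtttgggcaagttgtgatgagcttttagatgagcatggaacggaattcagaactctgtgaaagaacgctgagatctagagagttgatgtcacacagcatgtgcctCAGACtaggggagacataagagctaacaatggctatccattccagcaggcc
Best1, chr19:10001584-10001883, minus strand: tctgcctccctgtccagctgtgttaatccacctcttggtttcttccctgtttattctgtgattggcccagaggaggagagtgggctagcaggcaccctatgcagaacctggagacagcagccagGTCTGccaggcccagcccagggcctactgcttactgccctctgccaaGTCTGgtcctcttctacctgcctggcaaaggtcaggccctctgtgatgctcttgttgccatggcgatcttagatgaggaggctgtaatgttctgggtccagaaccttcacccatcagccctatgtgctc

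Olfr1350 had a window mean of 3.28 ± 0.84 (SD over 3 probes) centred at -79 bp, with inputs of 52.6, 252 and 103 and immunoprecipitates of 875, 1312 and 950. Klra2 had 2.82 ± 0.04 (3 probes) at 19 bp, Fam24b 2.62 ± 0.45 (5 probes) at -47 bp and Best1 2.36 ± 0.65 (5 probes) at 49 bp. The immunoprecipitate of Best1 lay 0.88 above the array median on the log2 scale, while that of Klra2 lay at -1.87 and that of Fam24b at -0.83. Distances are those of the array annotation, for which the sources used here give no build, and whether its start sites match those of RefSeq was not tested.

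Trim46, which encodes a microtubule-organising protein of axons, had the highest peak with a z of 6.58. Its 3 probes, on chromosome 3 from 89370060 to 89370449 and inside the gene, had inputs of 142, 314 and 107 and immunoprecipitates of 1624, 3797 and 1630. All 3 immunoprecipitates were above the array median of 936 and all 3 inputs below the median of 904. The window mean was 3.74 ± 0.22, or 13.4-fold. The gene's highest z by mean signal minus background was 6.20, with normexp background correction 4.32 and in the authors' deposited log2 values 5.97. Here and below, a z in an alternative is the highest over all windows of the gene. It can belong to another window than the one described. Trim46 passed in 10 of the 11 alternatives, and its z was lowest with windows of 1000 bp to either side at 3.01.

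Tas2r138, a bitter taste receptor gene, followed at a z of 6.08 but with uneven probes. Its inputs were 87.3, 50.8, 14.9 and 143, its immunoprecipitates 406, 1006, 567 and 507, and its window mean 3.46 ± 1.64 (4 probes) at -2317 bp. Only 1 of the 4 immunoprecipitates was above the array median. Car12, which encodes a membrane-bound carbonic anhydrase, had 6.01 (3.40 ± 1.20, 3 probes), with inputs of 363, 64.3 and 15.9. With normexp correction the z of Tas2r138 fell to 1.33 and that of Car12 to 3.05.

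Apln, which encodes apelin, had inputs of 78.1, 85.2 and 26.1 and immunoprecipitates of 605, 661 and 385, all below the array median, with a window of 3.35 ± 0.54 at -2246 bp. Adm, which encodes adrenomedullin, had inputs of 182, 157, 247 and 133 and immunoprecipitates of 2583, 1481, 1448 and 811, with a window of 3.12 ± 0.60 at -837 bp. The 2 genes had z of 5.91 and 5.47, and by mean signal 4.19 and 5.13. Tg, which encodes thyroglobulin, had inputs of 240, 83.7 and 150 against immunoprecipitates of 1517, 1075 and 1190, all 3 above the median. Its z was 5.63 (3.19 ± 0.52 at 2452 bp), and it passed in 10 of 11 alternatives.

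Gimap4, a GTPase gene of lymphocytes, had a z of 5.56 (3.17 ± 0.55, 3 probes), Alox12, the platelet lipoxygenase gene, 5.46 with all 3 immunoprecipitates above the median, and Vsig4, a complement receptor gene of macrophages, 5.43. Vsig4 shares the window of Mir223, which lies 48322 bp from its own start site, so the 2 genes are a single measurement. Matk, a kinase gene of blood cells, had 5.42 (3.08 ± 1.32, 4 probes). Its 4 inputs ran from 16.5 to 1267 and its immunoprecipitates from 416 to 4412, and it passed in 10 of 11 alternatives.

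Slc19a1, the reduced folate carrier gene, had a z of 5.41 with an even window of 3.07 ± 0.29 (3 probes), Fdx2, a mitochondrial ferredoxin gene, 5.34, and Clpb, a mitochondrial chaperone gene, 5.32 with 3.04 ± 0.24 over 5 probes. Grpr, the receptor gene for gastrin-releasing peptide, had 5.51, Fam78b 5.47, Toporsl 5.67, Rap2c, a small GTPase gene, 5.46 and Rbmx2, a splicing factor gene, 5.34. By mean signal Grpr and Rbmx2 both had 3.64 and Rap2c 2.73, under the threshold, while Slc19a1 had 4.96, Fdx2 5.21 and Clpb 4.35. F630111L10Rik, which has a clone name in place of a gene symbol, lay between Toporsl and Tg at a z of 5.66 (3.23 ± 0.50, 4 probes) and is not counted among the 20.

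**Figure D1:**
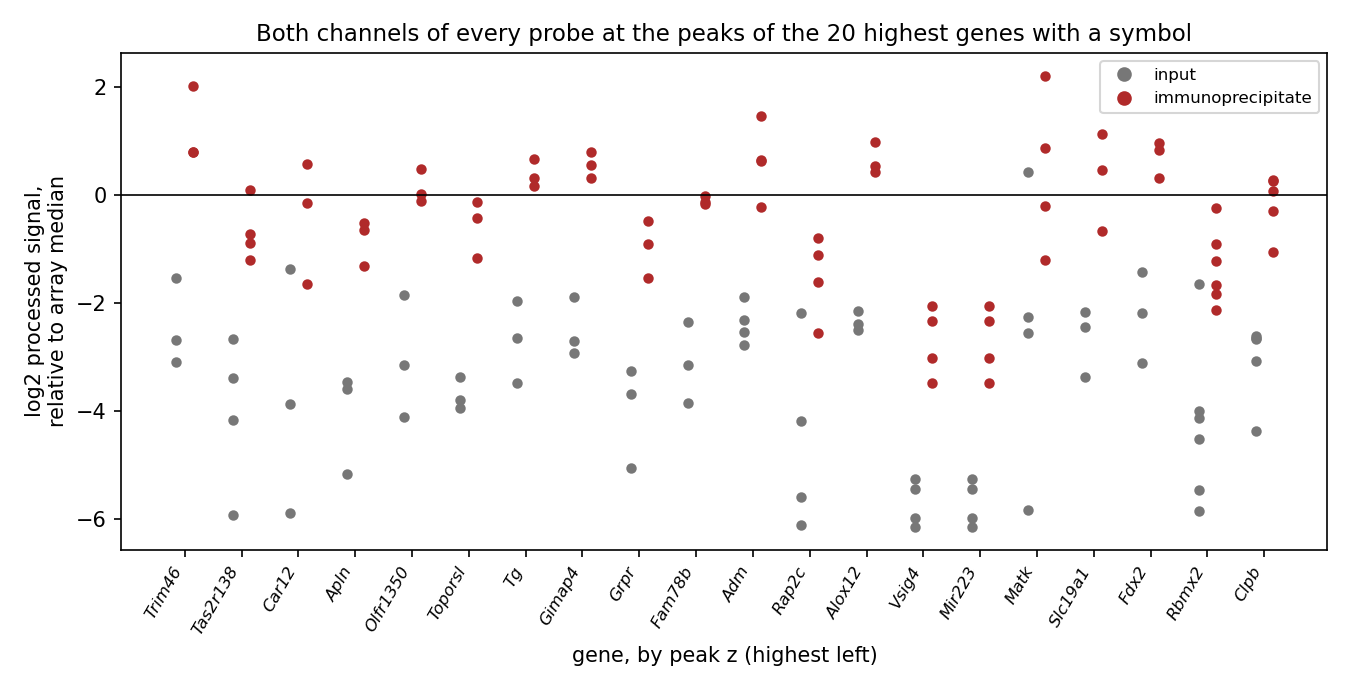
Log2 processed signal of every probe at the peaks of the 20 highest genes that have a gene symbol, relative to the array median of its channel (y axis), with input in grey and immunoprecipitate in red and genes ordered by peak z (x axis). Apart from 1 probe of Matk, all inputs lie below the array median, while immunoprecipitates lie on both sides of it, above it in all 3 probes of Trim46 and below it in all 4 probes shared by Vsig4 and Mir223.

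Over all 419 peaks the low input was the common feature. The input lay at least 2-fold under its array median in 416 peaks (99.3%), with a median of -2.88 on the log2 scale, and the immunoprecipitate had a median of -0.44. It lay above its array median in 129 peaks (30.8%) and at least 2-fold above it in 12 (2.86%). Since the rule for enrichment uses both channels, these values describe the peaks and are no test of them. In the same windows the SMAD1/5 input had a median of -0.44 and the SMAD2 input -0.53. The log2 ratio there had a median of 0.02 for SMAD1/5 and 0.11 for SMAD2. It was 1 or higher in 81 and 28 of the 419, and -1 or lower in more of them, 100 and 48. The same shares over all windows of those arrays are not given here. On the dim side, 49 of the 409 distinct peak windows held an input probe that was not well above background, and 0 windows held such input probes alone.

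**Figure D2:**
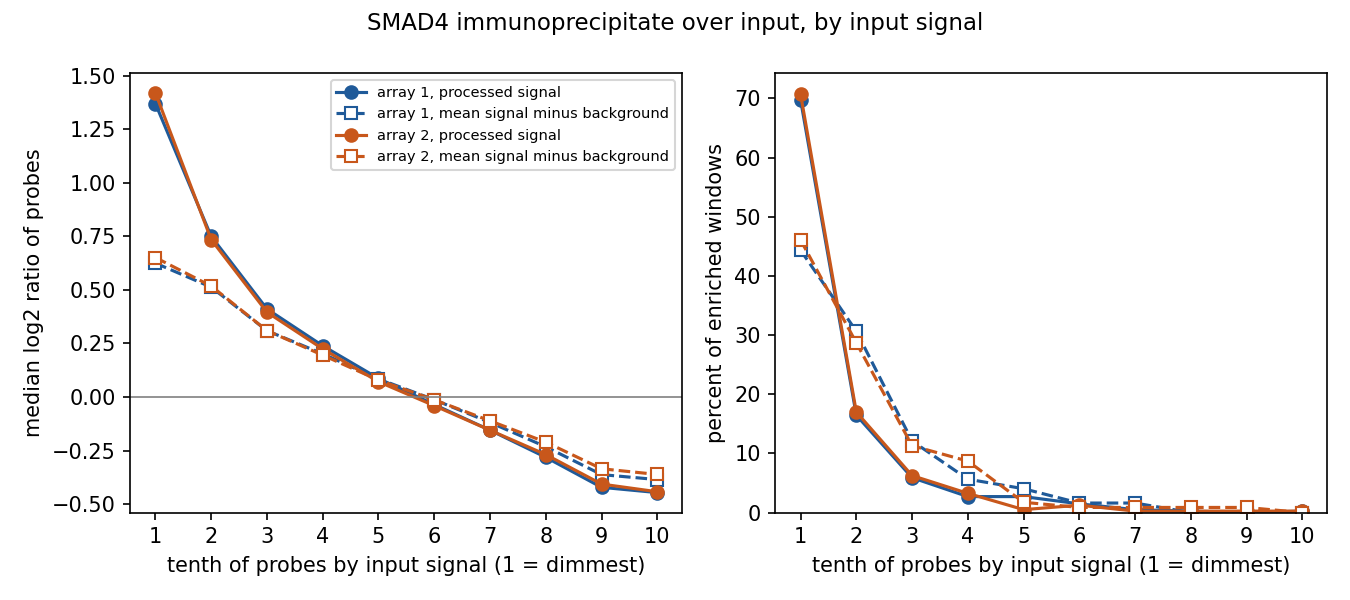
Median log2 ratio of probes (left, y axis) and percent of enriched windows (right, y axis) over 10 equal bins of probes by input signal, from the dimmest to the brightest (x axis), for both SMAD4 arrays with processed signal (filled) and with mean signal minus background (open). The median ratio runs from 1.37 and 1.42 in the dimmest bin to -0.45 and -0.44 in the brightest, and the dimmest bin holds 69.8% and 70.8% of the enriched windows.

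The ratio moved with the input over all probes as well. It correlated with the log2 input at r of -0.51 and -0.52 and with the log2 immunoprecipitate at 0.10 and 0.07, across probes of 1 array and with the input as its own denominator. With the probes of each array in 10 equal bins by input, the median ratio was 1.37 and 1.42 in the dimmest bin and -0.45 and -0.44 in the brightest. By mean signal minus background the dimmest bin had 0.62 and 0.65. Of the 807 enriched windows 702 (87.0%) were centred on a probe of the 2 dimmest bins, and by mean signal 179 of 239 (74.9%). With the smooth trend of the ratio on its own input removed, 3 genes were enriched, which were Spink2, Trim46 and Matk, and 308 were low. The part of dim input in these calls was not tested beyond this.

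Spink2, a protease inhibitor gene of the testis, had the highest immunoprecipitate of all peaks. Its 4 probes had inputs of 345, 1429, 460 and 797 and immunoprecipitates of 5237, 5470, 2806 and 5217, every one above the array median. The window averaged 2.86 ± 0.83 centred at -1006 bp, on chromosome 5 from 77143338 to 77143977, and the z was 5.00. It was 5.58 by mean signal, 4.98 with the trend removed, 5.68 with normexp and 5.84 in the authors' deposited log2 values. On the other arrays the log2 ratio in this window was 1.91 for SMAD1/5 and -1.48 for SMAD2. Klk6, a secreted protease gene of the nervous system, had a z of 4.68 with its immunoprecipitate 1.31 above the median.

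By each of the 4 signals (processed, mean minus background, normexp and the authors' values) 35 genes passed. Besides Trim46, Spink2 and Tg they included Alox12, Slc19a1, Tns4, an actin-linked adhesion gene, and Slc25a28, the mitochondrial iron carrier gene. Of the 35 only Trim46, Spink2, Rnf40 and 1700037H04Rik were on array 1, and all others were on array 2. Fdx2, Gimap4 and Adm, on array 1, passed by the other signals but had 3.42, 3.45 and 3.62 with normexp. Why the arrays differed was not tested. Tns4 had a z of 5.20, with 5.24 by mean signal, 5.20 with normexp and 5.05 in the authors' values. Slc25a28 had 5.10, with an even window of 2.90 ± 0.29 over 5 probes at -1560 bp, and Rnf40, a ubiquitin ligase gene for histone H2B, had 4.73. Among the 35 genes Zfp105 had the closest agreement among its probes, with 2.52 ± 0.04 (3 probes). Cited2, a coactivator gene that also binds SMAD2 and SMAD3, was chosen after its values were seen. It had a z of 4.91 (2.80 ± 0.55, 3 probes at -2707 bp), with the immunoprecipitate 0.91 above the array median.

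Among the 8 low genes the input was high at Lefty2, and the immunoprecipitate was low at the other 7. Lefty2, a feedback antagonist of Nodal, was lowest at a z of -5.05, its window averaging -2.74 ± 0.28 (5 probes) at -4235 bp, on chromosome 1 from 180868211 to 180868933. Its input there was 25085 and its immunoprecipitate 3582, at percentiles 99.7 and 93.8 of the array's probes. In the same window the SMAD2 array had a log2 ratio of -2.38 and the SMAD1/5 array 0.06. Closer to the start of Lefty2 the ratio was not low, with a peak z of 1.86 (1.11 ± 0.47, 5 probes) at -873 bp.

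In the other 7 the immunoprecipitate was between 97.9 and 248 and the input between 483 and 1196. Agtr2, an angiotensin receptor gene, had -4.81 (-2.59 ± 0.51, 4 probes), Adgrg2, a receptor gene of the epididymis, -4.24, and Rnf128, a ubiquitin ligase gene of T cells, -4.09. All 3 are on X. Agtr2 and Rnf128 were called in both directions, since other windows of theirs had z of 4.17 and 5.22. Runx1, a transcription factor gene of blood formation, had -4.08 with an even window of -2.19 ± 0.07 (3 probes) at 2471 bp. The olfactory receptor genes Olfr1406, Olfr556 and Olfr1288 had -4.21, -4.14 and -4.02.

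**Figure D3:**
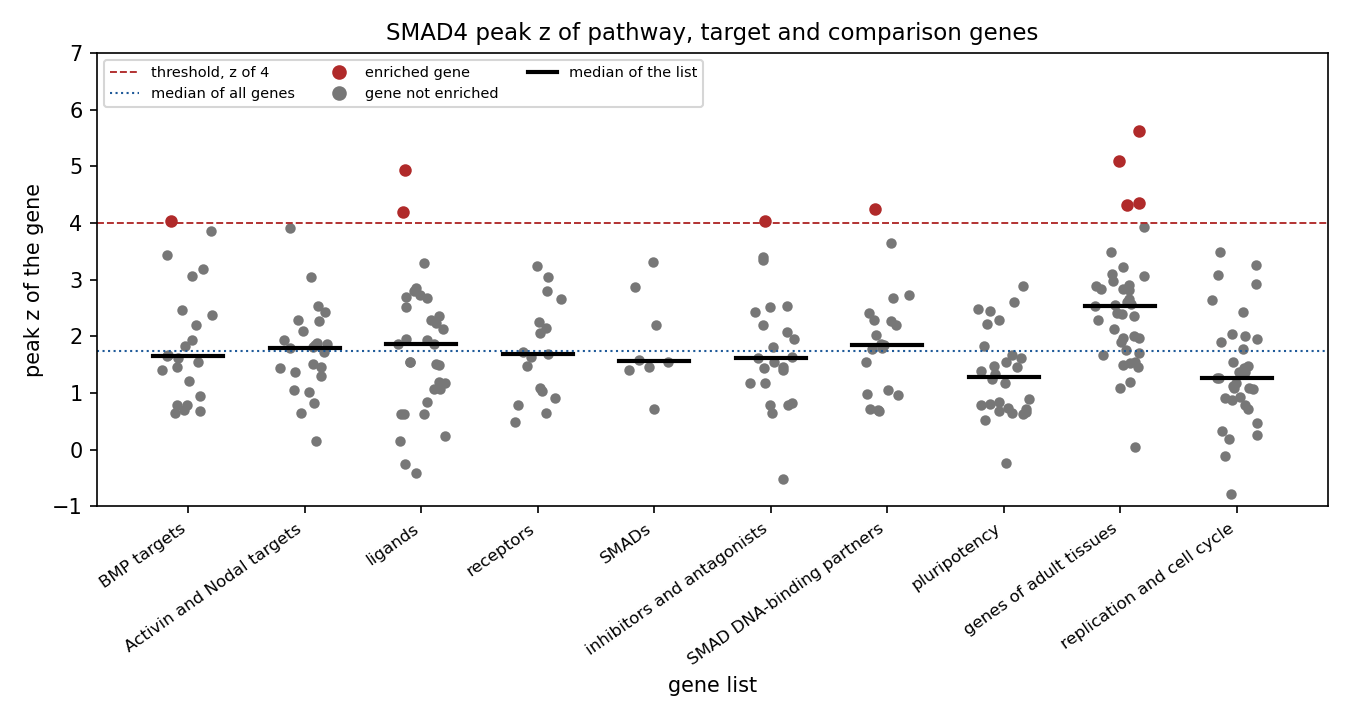
Peak z of each measured gene (y axis) in 10 gene lists (x axis), with enriched genes in red, the list median as a black bar, the threshold at 4 dashed and the median of all genes at 1.75 dotted. A gene can stand in more than 1 list, as Grem1 does among BMP targets and inhibitors, and the list of adult tissue genes has the highest median at 2.53.

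Of 23 BMP target genes 1 was enriched, or 4.35% against 2.5% of all genes, and the list's median peak z was 1.66 against 1.75. A gene with more windows has more chances of a high peak z, and the lists were not matched for this. The median number of windows per gene was 40 for BMP targets and 36 for Activin and Nodal targets. It was 26 for all genes and 20 for ribosomal protein genes. The enriched gene, Grem1, which encodes a secreted BMP antagonist, had inputs from 85.5 to 189 and immunoprecipitates from 438 to 1066 over 6 probes. Its window mean was 2.33 ± 0.50 at -1506 bp with a z of 4.04, close to the threshold, and the z was 3.49 by mean signal. Its probes within 500 bp of the start had a mean log2 ratio of -0.45.

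The homeobox target genes came next. Msx2 had a peak z of 3.87 (2.22 ± 1.22, 5 probes at -4243 bp) and kept 3.80 by mean signal. Dlx5 had 3.44 (1.99 ± 1.33, 4 probes at -5363 bp) and only 1.65 by mean signal, with a window input of 49.3. Cdx2, a trophectoderm regulator, had 3.19 at -1531 bp, and its probes at the start also had a raised ratio of 1.09 ± 0.74 (6 probes).

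Id1, the most direct known BMP target, had a peak z of 2.46 (1.45 ± 0.98, 3 probes at -1783 bp) and 2.52 by mean signal. Its start site had a mean ratio of 1.26 ± 0.66 over 4 probes, the highest of the BMP list at the start. Id4 had a peak z of 3.06, Id2 1.21 and Id3 0.71, with ratios at the start of -0.13, -0.84 and -0.45, so the 4 Id genes did not move together. Of the 23 genes 2 (8.70%) had a start ratio of at least 2-fold, against 5.04% of all genes, and 1 (4.35%), Gata3 at -1.11, was down by as much, against 2.93%. The median of the list at the start was -0.45. Smad6 and Smad7, the inhibitory SMADs, had peak z of 1.56 and 1.45, Bambi, a decoy receptor gene, 0.64 and Hand1 0.68.

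Of 24 Activin and Nodal target genes 0 were enriched, with a median peak z of 1.80. Ltbp1, which encodes a TGF-beta binding matrix protein, had 3.05 and Tgif1, a repressor of SMAD signalling, 2.53. Nodal itself was lowest of the list at 0.15, with a highest window of 0.16 ± 0.40 over 6 probes and with input and immunoprecipitate of 1687 and 1778, well measured in both channels. Lefty1 had 1.50, Skil 0.83 and Ski 1.81. The ratio at the start was -0.39 for Nodal, -0.18 for Lefty1 and -1.04 for Foxa2, an endoderm regulator.

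Among 33 ligand genes 2 were enriched, or 6.06%, with a median of 1.86. Gdf10, which encodes a BMP3-like ligand, had a z of 4.93, its window averaging 2.80 ± 0.72 at -4052 bp. Its 6 probes had inputs between 14.6 and 401 and immunoprecipitates between 188 and 1575. Bmp2 had 4.20 (2.41 ± 1.04, 4 probes at -4025 bp), with inputs of 78.9, 52.9, 40.0 and 442 and immunoprecipitates of 697, 274, 321 and 808, all below the array median. By mean signal Gdf10 had 3.66 and Bmp2 2.83. Bmp4 had 1.54 and Tgfb1 -0.25. Inhba, which encodes the subunit of Activin A, had a peak z of 2.68 and, as the highest ligand gene at the start, a start ratio of 1.28 ± 0.59 over 6 probes.

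Of 17 receptor genes 0 were enriched (median 1.68), and the highest were the Activin receptor gene Acvr2a at 3.25, the Nodal co-receptor gene Cfc1 at 3.05 and the BMP co-receptor gene Hjv at 2.80. Hjv had its peak near the start, and the start ratio was 1.86 ± 1.28 over 5 probes. Of the 8 SMAD genes 0 were enriched (median 1.57). Smad4 itself had a peak z of 3.32 (1.91 ± 0.56, 3 probes at -5495 bp) and Smad3 2.87, followed by Smad5 at 2.20, Smad1 1.58, Smad9 1.42 and Smad2 0.72.

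Among 23 inhibitors and antagonists Grem1 was the 1 enriched gene (4.35%, median 1.62), and the BMP antagonist genes Nbl1 and Twsg1 had 3.41 and 3.35. Among 20 DNA-binding partners of SMADs 1 was enriched (5%, median 1.85). Atf3, a stress-induced factor gene, had 4.25 with inputs of 119, 390 and 111 and immunoprecipitates of 914, 1117 and 710, and 3.86 by mean signal. E2f4, the partner in repression of Myc, had 3.65 and Foxh1, the Nodal partner, 2.28. None of the enriched pathway genes passed by mean signal.

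Of 39 genes of adult tissues 4 were enriched (10.3%), the median peak z was 2.53, and 66.7% had a z of at least 2 against 40.3% of all genes. The list's median lay above that of all genes in 10 of 10 alternatives, by 0.38 to 0.81. Besides Tg, they included Syn1, a synaptic vesicle gene, at 4.36 and Pth, the parathyroid hormone gene, at 4.31. At the start the list had a median ratio of 0.46, and 6 of 36 genes (16.7%) had at least 2-fold, against 5.04% of all genes, among them Pomc at 1.40 and the sperm protamine gene Prm2 at 1.24. The high median of such genes on these arrays was known when the list was taken up, so it supports nothing by itself.

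Of 28 pluripotency genes 0 were enriched, the median was 1.29 and 21.4% had a z of at least 2. Lin28a was highest at 2.89, while Sox2 had 1.38, Pou5f1 0.67 and Rif1 -0.23. Of 34 replication and cell cycle genes 0 were enriched, with a median of 1.27, and of 79 ribosomal protein genes 0, with 1.06. Ribosomal protein genes had a median start ratio of -0.46 with start input 1.16 above the array median, and 11 of 73 (15.1%) were at least 2-fold down at the start, against 2.93% of all genes measured there. Mitochondrial complex I genes, with 0 of 40 enriched, had a median peak z of 1.77. The medians of the pluripotency, cell cycle and ribosomal lists lay below that of all genes in 10 of 10 alternatives.

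Of 27 mesoderm and endoderm genes 0 were enriched (median 1.80), with Afp, the fetal albumin gene, highest at 3.82. Of 17 trophectoderm genes 0 were enriched (median 1.92), with Ascl2 at 3.54, and of 29 ectoderm and neural genes 0 (median 1.76), with Map2 at 3.91. Among 25 chromatin regulators 1 was enriched (4%). Kdm6a, the X-linked demethylase gene for histone H3 lysine methylation, had 4.55, with inputs of 18.1, 14.3 and 84.6, of which 1 was not well above background, and a z of 1.55 by mean signal.

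Large gene families were also counted, beside 2.5% of all genes enriched by processed signal and 0.789% by mean signal. In a family of 40 genes, 2.5% is 1 gene. The families were not matched for windows per gene either. The median number was 26 for all genes, 23 for olfactory receptors, 16 for vomeronasal receptors and 14 for defensins. Of 824 olfactory receptor genes 35 were enriched (4.25%), yet the family's median of 1.67 was under that of all genes, and 6 were enriched by mean signal. Their start sites were dim in both channels, with a median input of -1.23. The highest after Olfr1350 were Olfr95 at 5.31 (3.01 ± 0.40, 4 probes), Olfr456 at 5.07 and Olfr874 at 4.98. Of 103 vomeronasal receptor genes 0 were enriched, and of 36 taste receptor genes 2, Tas2r138 and Tas2r121. Tas2r121 had 5.02, with a window input of 20.0 and a z of 1.72 by mean signal.

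Among 73 genes of interleukins and their receptors 3 were enriched (4.11%) and the median was 2.23. They were Il1rn, the interleukin-1 receptor antagonist gene, at 5.31, Il1b at 4.26 and Il2ra at 4.21, and 0 passed by mean signal. Solute carriers had 12 of 319 (3.76%), and 6 of 319 by mean signal. Cytochrome P450 genes had 2 of 65, Cyp1b1 at 4.48 and Cyp2c65 at 4.30, and receptor genes named Gpr had 4 of 58, led by Gpr101 at 4.55. Proteasome genes had 0 of 48. Against 2.5% of all genes, keratin genes had 0 of 77, Hox genes 0 of 33, protocadherins 0 of 62 and defensins 0 of 32. Zinc finger (Zfp) genes had 7 of 252, led by Zfp606 at 5.19, and histone genes 1 of 65, H4c11 at 4.15.

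The position of the peaks was away from start sites. Peaks lay within 1000 bp of a start in 76 of the 419 genes (18.1%), against 25.6% for the highest window of all genes. They lay further upstream in 223 (53.2% against 42.0%) and further inside the gene in 120 (28.6% against 32.4%). Enriched windows made up 0.322% and 0.261% of windows between -4000 and -2000 bp, and 0.101% and 0.051% of those from 0 to 250 bp. From 2000 to 4000 bp downstream of the start they made up 0.234% and 0.384%, so on array 2 the share was higher there than upstream. By mean signal that downstream bin had 0.145% and 0.153%, against 0.0545% and 0.0674% between -4000 and -2000 bp.

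Over all probes, those within 250 bp of a start had a lower ratio than those 2000 to 4000 bp upstream. The difference was -0.198 ± 0.0081 on array 1 and -0.204 ± 0.0081 on array 2 (SE over probes). This SE counts probes as independent although neighbouring probes correlated, so it can be too small. Both channels were brighter at the start, the input by 0.99 and 0.96 and the immunoprecipitate by 0.80 and 0.76. The ratio was lowest in the 250 bp just upstream, at -0.06 on both arrays. The difference turned to 0.0773 and 0.0619 with the trend on input removed, and to 0.00168 on array 1 with normexp. By mean signal it stayed below 0, at -0.137 and -0.129.

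**Figure D4:**
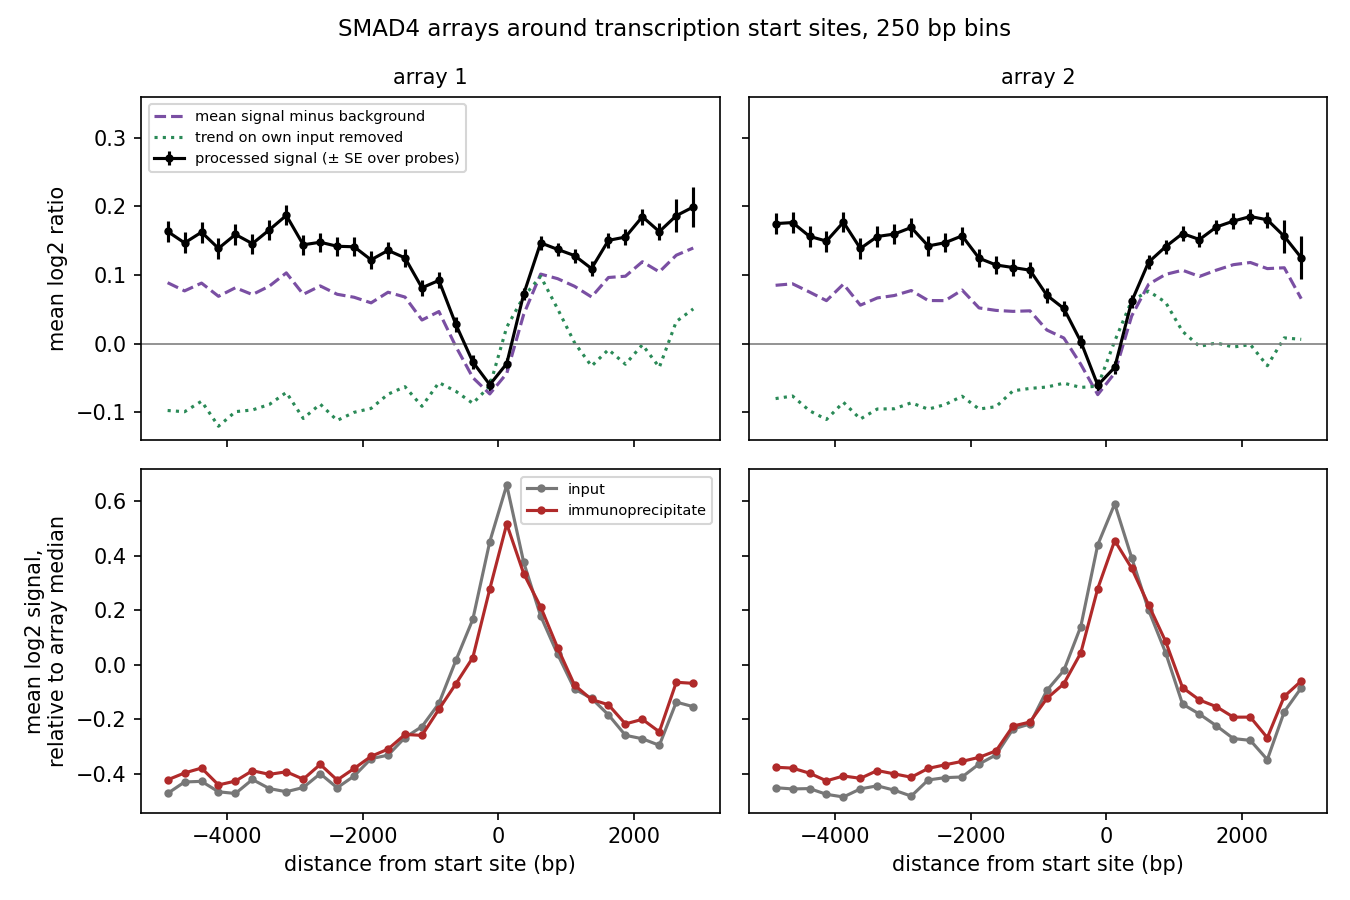
Mean log2 ratio of probes (top, y axis) and mean log2 signal of each channel relative to the array median (bottom, y axis) in 250 bp bins of distance from the start site (x axis, bp), for array 1 and array 2, with bars for the SE over probes. Input and immunoprecipitate both peak just inside the start, the input higher, and the ratio dips to -0.06 just upstream in processed signal, while the ratio with the input trend removed does not dip there.

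The enriched genes were unevenly spread over chromosomes. On X 66 of 578 genes (11.4%) were enriched, against 353 of 16141 (2.19%) on the autosomes, and X held 15.8% of the 419 genes while it holds 3.46% of genes measured. By mean signal X had 4 (0.692%) against 0.793% of autosomal genes. Chromosomes 8 and 11 were at the other end with 3 of 844 genes (0.355%) and 7 of 1388 (0.504%). These 2 counts were the same by mean signal, but the 2 chromosomes were then no longer lowest. Chromosomes 16 (0.184%) and 13 (0.319%) were below both by mean signal. With processed signal the highest autosome was chromosome 2 with 3.18%.

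The channel levels differed by chromosome too. The median input of X probes was -1.25 relative to the array median and their immunoprecipitate -1.19, while chromosome 8 had 0.62 and 0.59 and chromosome 11 0.69 and 0.68. The inputs of the other antibodies lay the same way on the 3 chromosomes, with -0.78, 0.44 and 0.43 for SMAD1/5 and -0.84, 0.46 and 0.50 for SMAD2. On array 2, 30.1% of X probes were in the dimmest of the 10 input bins, against 8.40% of autosomal ones, and within that bin 63.6% of X probes and 59.9% of autosomal ones had a ratio of at least 2-fold. In bins 2 to 9, counted from the dimmest, the median ratio was lower on X than on autosomes. It was 0.31 against 0.80 in bin 2 and -0.07 against 0.44 in bin 3. Only in bins 1 and 10 was the median ratio higher on X. The copy number of these chromosomes in the cells was not analysed here, and its part in the levels was not tested.

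**Figure D5:**
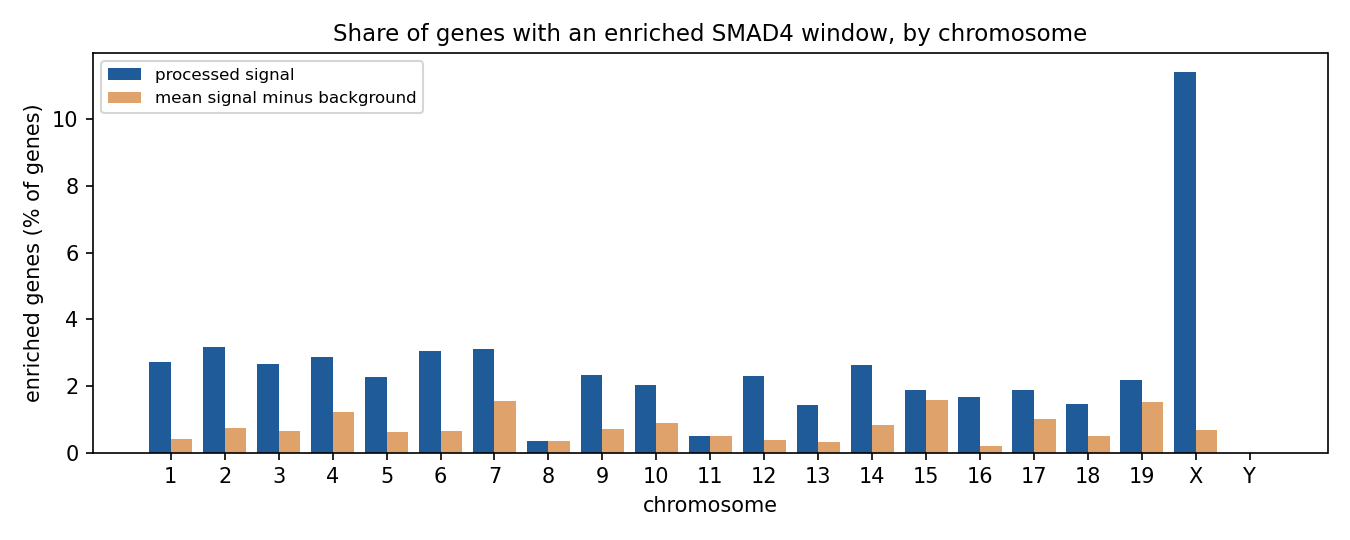
Percent of measured genes that were enriched (y axis) on each chromosome (x axis), with processed signal in blue and mean signal minus background in orange. X stands at 11.4% with processed signal and 0.692% by mean signal, and chromosomes 8 and 11 are lowest of the autosomes with processed signal, at 0.355% and 0.504%.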

How the data were processed

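DNA recovered with anti-SMAD4 and its input were compared on 2 promoter arrays. Each deposited scanner file holds the intensity of every spot in both channels, background-subtracted and dye-normalised by Agilent Feature Extraction 9.5.3.1 with a ChIP protocol, per the file headers. Other deposited columns are flags of 0 or 1 for outlying, saturated and dim spots. The deposited log2 value tables follow immunoprecipitate over input, but their scale and centring are unknown. The submitters' processing notes name limma without a version. The probes' genome build is not given in the sources.

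Control spots and outliers were left out, saturated spots kept, and log2 of red over green was centred per array, with no loess. A window needed at least 3 probes. Its z used the scaled median absolute deviation of the windows below the median. Enriched windows had a z of at least 4 and 2 or more probes beyond the 95th percentile, and low windows the reverse. A gene was called if 1 of its windows was, and its peak z is its highest. Both can rise with the number of windows of a gene, which was not adjusted for. Window signals are geometric means. Genes at the start used probes within 500 bp, at least 3.

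Of 17096 gene names 16121 were updated through RefSeq accessions, 349 by symbol and 361 by an older symbol, and 265 were kept. RefSeq promoters matched 77.2% of genes, under 80%, so gene sets were not compared by promoter content. The rule named the 20 highest genes with a gene symbol, enriched list members (up to 6 per list), any pathway or target gene, low genes, and the 10 highest by mean signal and without the input trend. The members, lists and rules were chosen with earlier results of these data known. Window calling was run on simulated data, in which log2 ratios were shuffled over positions and some genes were raised by known amounts. Shuffling removes the correlation of neighbouring probes, so this run cannot show how many calls here are false. Alternatives changed the signal, background correction (normexp, offset 50), flags, window width, probes per window and threshold. R 4.3.3 with limma 3.58.1 and Python 3.11.15 with numpy 2.4.6, pandas 2.3.3 and scipy 1.17.1 were used. The number of arrays limits the precision. Some genes that the rule names are left out.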

Additional observations from a re-analysis of the deposited data

Results flagged for a closer look

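The start site difference went opposite ways with 2 antibodies. It was -0.198 and -0.204 with SMAD4 but 0.0839 and 0.0688 with SMAD2, and the difference between antibodies was not tested. On the SMAD1/5 arrays it was -0.297 and -0.484.

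The mitochondrial probes, which belong to no promoter comparison, had a high ratio. Their median log2 ratio was 1.71 over 47 probes of SMAD4 array 2, with the input 3.95 and the immunoprecipitate 5.66 above the array median. The SMAD2 array had 1.21 and the SMAD1/5 array 0.38 for the same probes.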

How the results depend on the processing

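The count of 419 enriched genes was 132 by mean signal, 52 with normexp, 83 in the authors' values and 3 with the input trend removed. It was 278 with windows of 1000 bp to either side, 196 with at least 5 probes and 51 at a z of 5. With windows of 250 bp it was 396, but the genes changed: 191 of the 419 (45.6%) were among them. With windows of 1000 bp 171 of the 419 (40.8%) were called again, and with at least 5 probes 146 (34.8%). The 8 low genes became 5 by mean signal, 3 with normexp, 308 with the trend removed, 2 with windows of 250 bp, 3 with at least 5 probes and 1 at a z of 5. The share of enriched genes on X, 15.8%, was 3.03% by mean signal, 0% with normexp, in the authors' values and with the trend removed, and 21.6% at a z of 5. The start site difference on array 1 was -0.137 by mean signal, 0.00168 with normexp, -0.0729 in the authors' values and 0.0773 with the trend removed. On array 2 it was -0.129, -0.0768, -0.0868 and 0.0619. The peak z of Tas2r121 was -0.45 with bright probes only, -0.37 with 250 bp and -0.40 with at least 5 probes, and that of Zfp105 -0.0227 with at least 5 probes. The cause of each change was not tested, except that a stricter threshold leaves fewer enriched windows by construction. A probe minimum also leaves fewer windows, but the median and robust SD of the z were taken anew from those left. Keeping outlier flags or leaving out saturated spots kept 418 and 419 of the 419 genes. Of 677 alternative peak z of 68 named genes 428 stayed within 1 unit of z, 245 moved further and 4 changed sign. No paired analysis was possible because there was 1 replicate. Most enriched windows lay at dim input, whose part in the calls was not tested beyond the runs above. No replicate checks any value.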
